A study of Mus musculus with 12 samples.

Results

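Expression of 8 genes of cholesterol synthesis and its regulator SREBP2 was examined in MLL-AF9-driven AML blasts with and without STAT3β. The genes were chosen by symbol in the deposited table of normalized counts, where all 8 were found among 24454 genes, and all 8 were among the 11476 genes that entered the tests because they averaged 10 normalized counts or more. Of these, 6 code for enzymes, namely Hmgcs1, Idi1, Fdps, Fdft1, Sqle and Lss, and the others are Srebf2, which codes for SREBP2, and Insig1, which codes for a protein that holds SREBPs back.

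Blasts of both genotypes came from fetal liver cells transduced with a retrovirus that carries the MLL-AF9 fusion oncogene and a Venus fluorescence reporter, so MLL-AF9 and Venus were common to all samples. The fetal liver cells were wildtype (WT) or STAT3β-deficient (Δβ), that is, they lacked the shorter β isoform of STAT3. They were transplanted into NSG mice (NOD.Cg-Prkdc scid Il2rg tm1Wjl/SzJ), an immunocompromised strain without mature lymphocytes of its own, and Venus-positive blasts were sorted from spleen (SP) and bone marrow (BM) of sick recipients and sequenced after poly-A enrichment. There were 4 groups of 3 libraries each, WT SP, Δβ SP, WT BM and Δβ BM, and 12 libraries in all. The recipients were young adult males. The labels do not give the animal or the transformed culture behind each library, so the p-values measure the spread between these libraries only, which may be partly technical.

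Cells make cholesterol from acetyl-CoA by the mevalonate pathway, whose farnesyl intermediates also serve protein prenylation, ubiquinone and dolichol. SREBP2 is a transcription factor kept in the endoplasmic reticulum membrane by SCAP and INSIG proteins when sterols are plentiful, and it is carried to the Golgi, cleaved and sent to the nucleus when they are scarce, where it binds sterol regulatory elements in promoters of the pathway's genes. Insig1 and Srebf2 are themselves targets of SREBP2, and myeloid leukemia cells both synthesize cholesterol and take it up through the LDL receptor.

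Promoter sequence is shown for Hmgcs1, the first enzyme among the members, for the regulator Srebf2 and for its inhibitor Insig1, since sterol regulatory elements lie in such stretches and the regulators had the largest differences between genotypes in SP. The sequences are from RefSeq on the mouse build GRCm38.p6, read 5′ to 3′ on the plus strand and ending at the RefSeq start or at the start of the GENCODE gene where that lies further upstream. Capitals mark the sterol regulatory element core TCACNCCA and the CCAAT box, which appears as ATTGG where it lies on the other strand. The stretch of Hmgcs1 is chr13:119690101-119690350, that of Srebf2 is chr15:82147019-82147180 and that of Insig1 is chr5:28071162-28071362.
Hmgcs1: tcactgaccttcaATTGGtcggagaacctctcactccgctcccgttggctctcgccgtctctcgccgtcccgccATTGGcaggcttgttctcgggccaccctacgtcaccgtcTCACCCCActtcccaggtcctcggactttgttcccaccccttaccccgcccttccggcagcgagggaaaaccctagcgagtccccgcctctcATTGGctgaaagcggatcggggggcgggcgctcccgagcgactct
Srebf2: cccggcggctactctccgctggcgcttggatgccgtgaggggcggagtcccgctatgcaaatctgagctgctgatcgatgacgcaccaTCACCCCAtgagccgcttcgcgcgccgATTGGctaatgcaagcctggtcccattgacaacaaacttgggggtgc
Insig1: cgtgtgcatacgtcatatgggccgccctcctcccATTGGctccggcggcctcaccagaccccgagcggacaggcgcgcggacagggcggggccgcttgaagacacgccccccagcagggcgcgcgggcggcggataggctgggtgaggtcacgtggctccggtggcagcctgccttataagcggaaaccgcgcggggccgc

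Promoters of 5 of the 8 members were found in the table, those of Hmgcs1, Idi1, Lss, Insig1 and Srebf2, and motifs were searched on both strands from 250 bases before to 50 bases after the RefSeq start. The element TCACNCCAC of 9 letters was found in Hmgcs1 alone, beginning 137 bases before the start, and it was present in 1.24% of 32851 mouse promoters of the same length. Its first 8 letters, a search added after the sequences had been seen, were also found in Srebf2 from 162 bases before the start and were present in 4.36% of all promoters. A CCAAT box (CCAAT) was found in 5 of 5 member promoters against 37.4% of all promoters, and a GC box (GGGCGG) in 5 of 5 against 35.7%. The matches are a description of these letters in this window.

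In SP and BM and in both genotypes the libraries held 9001051 to 13859727 reads on genes, and 1 read was worth 0.775 to 1.17 normalized counts. Stat3, the targeted gene, had 2977 to 4430 normalized counts in WT SP and 2674 to 3236 in Δβ SP, and gene-level values cannot separate its isoforms. Δβ minus WT, its log2 fold change was −0.32 in SP (95% confidence interval −0.67 to 0.04) and −0.10 in BM (−0.46 to 0.26). All 9 blast markers examined, Spi1, Cebpa, Mpo and Hoxa9 among them, were present in every group. Their summed level overlapped between genotypes in SP, with 61031 to 81033 normalized counts in WT and 55882 to 88467 in Δβ, but not in BM, with 46328 to 50707 in WT and 60652 to 83274 in Δβ. The sum in BM followed Mpo, with 5172 to 14555 in WT and 24214 to 41895 in Δβ. Cebpa was lower in Δβ BM without overlap, and the other blast markers overlapped there. In SP Itgam, Spi1 and Cebpa were lower in Δβ without overlap, and the others overlapped. The hemoglobin genes of red cells were at 0 reads in every library. Markers of mature neutrophils summed to 59991 to 138791 in WT SP and 40905 to 57244 in Δβ SP, without overlap, and in BM to 80121 to 188747 in WT blasts and 65932 to 100355 in Δβ blasts, with overlap. Taken singly, each of these markers overlapped between genotypes in SP, Ngp with 34544 to 88743 in WT and 24710 to 36496 in Δβ. Markers of T cells summed to 258.8 in Δβ BM replicate 1 and at most 75.2 in any other library. The ribosomal RNA gene Rn45s held 2.48% and 2.41% of the reads in WT SP replicates 2 and 3, and at most 0.725% elsewhere. Since these are bulk samples, fewer cells of a type and less RNA per cell cannot be told apart.

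Per kilobase of transcript, which allows genes to be compared, the highest member was Fdps with a mean level of 619 normalized counts per kilobase over the 12 libraries, followed by Srebf2 with 328, Hmgcs1 with 154, Insig1 with 110 and Sqle with 90.5. Fdft1 and Lss had 56.1 and 51.8 normalized counts per kilobase. Idi1 was far lower with 4.56, so that its values rest on few reads. The level of Fdps is uncertain, because 87.7% of its transcript is matched at 95% identity or more by transcripts of other genes, chiefly Gm3571. The same share was 54.7% for Fdft1, 35.3% for Idi1, 16.2% for Hmgcs1, 8.36% for Lss and 7.01% for Insig1, while no such match was found for Sqle and Srebf2. Reads from the matching stretches could have been left out or assigned elsewhere when the authors counted.

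The first comparison asked whether the cholesterol genes differed between blasts with and without STAT3β. None of the 8 members passed an adjusted p of 0.05 in SP or in BM. In SP the most different members were both on the regulatory side, Srebf2 and Insig1, with lower means in Δβ, and the enzymes lay on either side of 0. In SP and in BM every interval included 0.

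**Figure D1:**
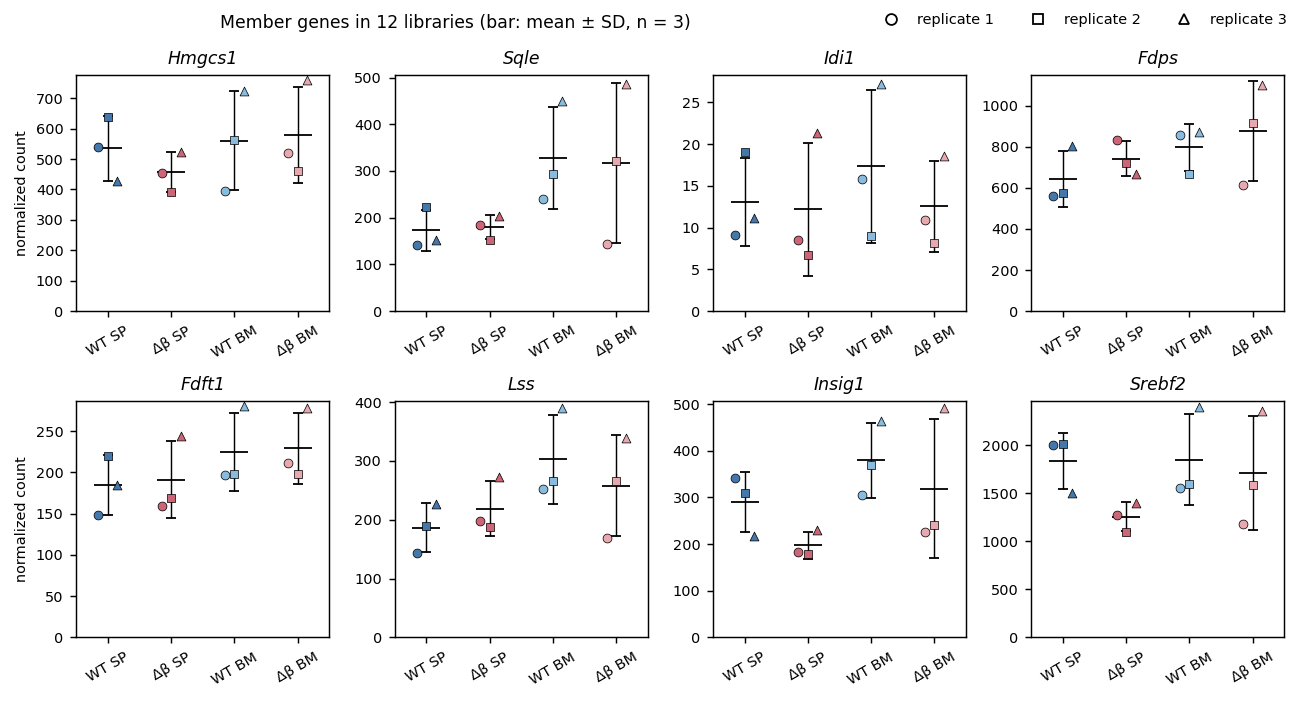
Normalized counts (y axis, linear, from 0) of the 8 members in WT SP, Δβ SP, WT BM and Δβ BM, with 1 symbol per library (circle, square and triangle for replicates 1, 2 and 3) and bars for the mean ± SD of 3 libraries. The Δβ SP values of Srebf2, 1099 to 1396, lie below the 3 WT SP values, and the triangles of BM stand at the top of most panels.

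Srebf2 (NM_033218, Entrez gene 20788, chromosome 15 from 82147181 to 82205379, plus strand) stood at 2003, 2014 and 1501 normalized counts in replicates 1, 2 and 3 of WT SP, against 1279, 1099 and 1396 in those of Δβ SP. Every Δβ SP library was below every WT SP library. In SP the log2 difference, Δβ minus WT, was −0.54 (standard error 0.25, 95% confidence interval −1.09 to 0.0069), and limma gave a Benjamini-Hochberg adjusted p of 0.337. Among all genes tested, 9.37% were likewise lower in Δβ SP without overlap, so that such a separation was common in SP. The summed neutrophil markers separated the SP groups in the same direction, though each of them taken singly overlapped. The blast markers Itgam, Spi1 and Cebpa were also lower in Δβ SP without overlap. The part of these markers in the difference of Srebf2 was not tested. In BM, Srebf2 had 1562, 1594 and 2400 normalized counts in WT and 1184, 1593 and 2361 in Δβ. The BM groups overlapped, with replicate 3 the highest in each genotype, and the log2 fold change was −0.14 (−0.69 to 0.41).

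Insig1 (NM_153526, Entrez gene 231070, chromosome 5 from 28071363 to 28078662, plus strand), the brake on SREBP transport, had 341, 311 and 217 normalized counts in WT SP and 183, 179 and 231 in Δβ SP. The groups overlapped by WT replicate 3 and Δβ replicate 3. The log2 fold change in SP was −0.53 (standard error 0.30, interval −1.18 to 0.12, adjusted p = 0.403 from limma). In BM its normalized counts were 305, 370 and 464 in WT and 226, 241 and 491 in Δβ. Here the Δβ libraries included both the lowest 2 values and the highest one, and the log2 fold change was −0.32 (−0.97 to 0.33).

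Of the enzymes on the way to farnesyl diphosphate, Hmgcs1 (NM_145942, Entrez gene 208715, chromosome 13 from 119690379 to 119708260, plus strand) makes HMG-CoA, an early intermediate of the pathway. Its normalized counts were 539, 639 and 427 in WT SP and 453, 393 and 524 in Δβ SP, with overlap. In BM it had 396, 562 and 723 in WT and 519.7, 460.2 and 759 in Δβ, again with overlap. Between genotypes its log2 fold change was −0.22 (−0.77 to 0.34) in SP and 0.06 (−0.50 to 0.61) in BM.

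Idi1 (NM_145360, Entrez gene 319554, chromosome 13 from 8885501 to 8892451, plus strand) converts isopentenyl diphosphate to its isomer. Its normalized counts were 9.12, 19.1 and 11.2 in WT SP, 8.53, 6.72 and 21.4 in Δβ SP, 15.9, 9.01 and 27.2 in WT BM and 10.9, 8.18 and 18.6 in Δβ BM. Values within a group differed by more than the groups did, and the intervals were the widest of the members, from −1.43 to 1.03 around −0.20 in SP and from −1.61 to 0.85 around −0.38 in BM.

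Fdps (NM_134469, Entrez gene 110196, chromosome 3 from 89093588 to 89101959, minus strand) makes farnesyl diphosphate, the branch point to sterols and prenyl groups. Its normalized counts were 558, 574 and 803 in WT SP, 835, 724 and 668 in Δβ SP, 858, 667 and 871 in WT BM and 614, 916 and 1099 in Δβ BM. Unlike Srebf2, its mean was higher in Δβ in both organs, but the groups overlapped and the log2 fold changes were 0.22 (−0.27 to 0.70) in SP and 0.10 (−0.38 to 0.59) in BM.

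The remaining enzymes lead from farnesyl diphosphate to the first sterol. Fdft1 (NM_010191, Entrez gene 14137, chromosome 14 from 63145150 to 63179578, minus strand), squalene synthase, had 148, 220.4 and 185 normalized counts in WT SP, 159.7, 169 and 245 in Δβ SP, 197, 198 and 280 in WT BM and 211, 199 and 279 in Δβ BM. It differed least between genotypes, with log2 fold changes of 0.04 (−0.47 to 0.55) in SP and 0.03 (−0.48 to 0.54) in BM.

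Sqle (NM_009270, Entrez gene 20775, chromosome 15 from 59315077 to 59331192, plus strand), the squalene epoxidase and a control point of the sterol branch, had 143, 224 and 152 normalized counts in WT SP and 185, 152 and 204 in Δβ SP. In BM it had 239, 293 and 450.2 in WT and 144, 322 and 486 in Δβ, from the lowest to the highest BM library of the gene. Between genotypes its log2 fold changes were 0.08 (−0.79 to 0.95) in SP and −0.16 (−1.03 to 0.71) in BM.

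Lss (NM_146006, Entrez gene 16987, chromosome 10 from 76531588 to 76557138, plus strand), lanosterol synthase, had 144, 189 and 227 normalized counts in WT SP and 198, 187 and 272 in Δβ SP. In BM it had 253, 266 and 389.7 in WT and 169, 266 and 339 in Δβ. The log2 fold changes pointed in opposite directions, 0.24 (−0.39 to 0.86) in SP and −0.26 (−0.89 to 0.36) in BM, and both groups overlapped in each organ. The difference between these effects, SP minus BM, was 0.50 on the log2 scale (−0.39 to 1.38), and its adjusted p of 0.926 from limma was the lowest of any member in that test, shared with Srebf2. The difference was 0.22 without Δβ BM replicate 1 and 0.30 without WT BM replicate 3, and 0.22 to 0.72 over all libraries left out in turn. In this test of whether genotype effects differed between organs, 0 members were called by limma, edgeR or DESeq2, limma called 0% of all genes, and 0 members had an unadjusted p under 0.05 with any of these tools, beside 3.2% of all genes in limma.

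Counted over the 8 members, 0 were called between genotypes in SP, where limma called 0.105% of the genes tested, and 0 in BM, where it called 0.0697%. At an unadjusted p under 0.05 limma, edgeR and DESeq2 each had 0 members in either organ, against 14.9% of all genes in SP and 2.59% in BM by limma. Of the members 4 of 8 were below 0 in SP, and the median fold change of the list was −0.08 on the log2 scale, beside 51.9% of all genes and a median of −0.01. In BM 5 of 8 were below 0, with a median of −0.15, beside 54.7% and −0.02. One member of 8, Srebf2, did not overlap between genotypes in SP and 0 in BM, against 17.3% and 7.63% of all genes in either direction. With unadjusted intervals this wide, log2 differences of about 0.5 for the best measured members and over 1 for Idi1 could not have been told from 0 in these libraries. A call at the adjusted threshold asks for larger differences still.

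**Figure D2:**
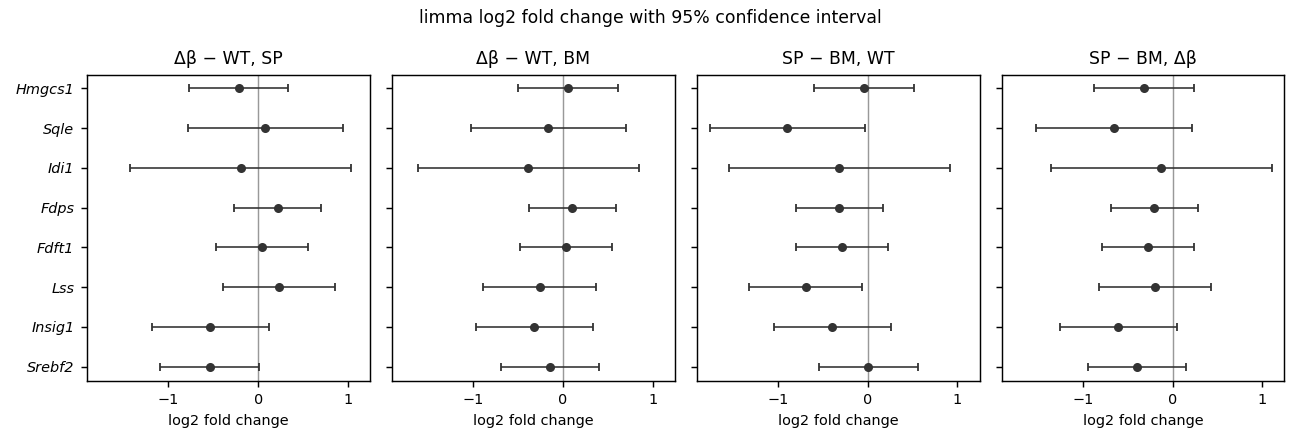
Log2 fold changes from limma (x axis) with 95% confidence intervals for the 8 members in 4 comparisons, Δβ minus WT in SP and BM and SP minus BM in WT and Δβ blasts. Intervals of the genotype comparisons all include 0, and those of Sqle and Lss in the WT organ comparison do not.

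The second comparison asked whether blasts in SP and BM differed. The means of Sqle and Lss were lower in SP than in BM among WT blasts, and in Δβ blasts all 8 members had log2 fold changes below 0. No member passed the adjusted threshold in either genotype with limma, edgeR or DESeq2, and limma called 0% of all genes.

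In WT blasts the 3 SP libraries of Sqle, 143 to 224 normalized counts, were all below the 3 BM libraries, 239 to 450.2. The log2 fold change of SP against BM was −0.90 (standard error 0.39, interval −1.76 to −0.03), and the adjusted p from limma was 0.600. For Lss the WT SP libraries, 144 to 227, were likewise below the WT BM libraries, 253 to 389.7, and the log2 fold change was −0.69 (standard error 0.28, interval −1.32 to −0.07, adjusted p = 0.599 from limma). Among all genes 11.5% did not overlap between the WT organs, and 5.8% were lower in SP without overlap. The other members overlapped between the WT organs, with log2 fold changes from −0.39 for Insig1 to 0.0064 for Srebf2. Summed markers of red pulp macrophages and of stromal cells separated the WT organs in the same direction. Those of macrophages summed to 3788 to 5669 normalized counts in WT SP and 6473 to 8958 in WT BM. Those of stromal cells summed to 4.06 to 15.95 and 31.5 to 56.6. Markers of megakaryocytes and platelets separated the WT organs the other way, with 44.5 to 48.7 in WT SP and 29.8 to 38.3 in WT BM. Blast markers did so too, with 61031 to 81033 and 46328 to 50707. The sums of the other marker lists overlapped. The macrophage sum rested on Vcam1, with 699 to 1291 in WT SP and 2910 to 5511 in WT BM. Slc40a1 had a lower mean in WT SP, with overlap. Adgre1 had a higher mean in WT SP, 3000 against 2563 in WT BM, as did C1qa, C1qb, C1qc and Spic at few reads. In WT BM 4 of the 7 macrophage markers were under 3 reads in every library and Spic was at 0. The part of these markers in the organ differences was not tested. In all, 7 of 8 members were below 0 in WT blasts, beside 50% of all genes, and Srebf2 was below 0 too with TMM, edgeR and DESeq2. Sqle and Lss were the 2 of 8 at an unadjusted p under 0.05 with limma, edgeR and DESeq2, beside 8.27% of all genes in either direction and 3.91% lower in limma.

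In Δβ blasts the log2 fold changes of SP against BM ran from −0.65 for Sqle (−1.52 to 0.21) and −0.60 for Insig1 (−1.26 to 0.05) through −0.39 for Srebf2 (−0.94 to 0.15) to −0.13 for Idi1 (−1.36 to 1.10). All 8 were below 0, as were 49.6% of all genes, and the organs overlapped for every member, against 7.42% of genes without overlap. Taking the Δβ libraries by number, since same-numbered SP and BM libraries deviated together, SP was below BM in 3 of 3 pairs for Hmgcs1, Fdft1 and Insig1, beside 18.7% of all genes, and in 2 of 3 for the other 5 members. The exception was pair 1 for Sqle, Fdps, Lss and Srebf2 and pair 3 for Idi1. The intervals given here use no pairing, and with the number as a block 0 members were called. At an unadjusted p under 0.05 there were 0 members with limma, 1 with edgeR and 2 with DESeq2, beside 1.77% of all genes in limma. In Δβ blasts the SP minus BM difference of Lss was −0.20 (−0.82 to 0.43), smaller than in WT blasts, but the interval of the difference between genotypes given above includes 0.

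Averaged over both genotypes, 8 of 8 members had log2 fold changes of SP against BM below 0, beside 49% of all genes, and their median was −0.27, beside 0.00. The lowest was Sqle at −0.77 (standard error 0.28, interval −1.39 to −0.16, adjusted p = 0.845 from limma). Insig1 followed at −0.50 (−0.96 to −0.04) and Lss at −0.45 (−0.89 to −0.0032). These 3 of 8 members were at an unadjusted p under 0.05 with limma, edgeR and DESeq2 alike, beside 5.76% of all genes in either direction and 2.78% lower in limma. The number called after adjustment was 0 of 8 with each tool, and limma called 0% of all genes. The members share their libraries and the pathway that joins them, so they are not 8 independent observations of an organ difference.

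Certain BM libraries stood high for most members. The BM libraries numbered 3 held the highest 2 of the 6 BM values for 7 of 8 members, all but Fdps, beside 6.48% of all genes tested. This pattern was noticed in these values and the ranks are given without a test. Without both of these libraries, a choice made after seeing the data, the averaged log2 fold change of SP against BM was 0.03 for Hmgcs1, 0.12 for Idi1 and 0.04 for Srebf2, each on the other side of 0, and the other 5 members stayed below 0. In the same fit Sqle was at −0.45, Insig1 at −0.24 and Lss at −0.24. Leaving out libraries picked for their high BM values necessarily moves SP minus BM upward, so these shifts are a description.

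Across the 12 libraries the members varied together. The mean of their log2 values, each centred on its own mean, was highest in WT BM replicate 3 at 0.65 and Δβ BM replicate 3 at 0.63, where 8 of 8 members were above their own mean, and lowest in Δβ SP replicate 2 at −0.46, where 0 of 8 were. Pearson's r between members was above 0 in 28 of 28 pairs, from 0.0792 to 0.901 with a median of 0.63. Over pairs of all tested genes the median r was close to 0, and the 5th and 95th percentiles were −0.664 and 0.68. After removal of the group means r was above 0 in 28 of 28 member pairs, with a median of 0.65. The lowest was 0.00193, for Hmgcs1 with Fdps, and the highest 0.921. The matching values over all genes were not computed. These 12 points share library preparation and scaling and include Δβ organ libraries that deviated together, and the values are a description. Fdps stood apart with a median r of 0.238 with the other 7 members, and Fdft1 had the highest, 0.711.

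Of all genes tested, the one whose levels were most like the members' mean was another enzyme of the pathway, Cyp51 (lanosterol 14-alpha demethylase), with r = 0.925 over 12 libraries. Hsd17b7, a later enzyme of the sterol branch, had 0.903, the sterol carrier Stard4 0.866 and Acat2, which joins acetyl-CoA units, 0.852. Outside the pathway the 5 most alike genes were Clasp1 with r = 0.879, Cdca4 with 0.871, Taf4 with 0.869, Armcx4 with 0.868 and Nin with 0.861.

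**Figure D3:**
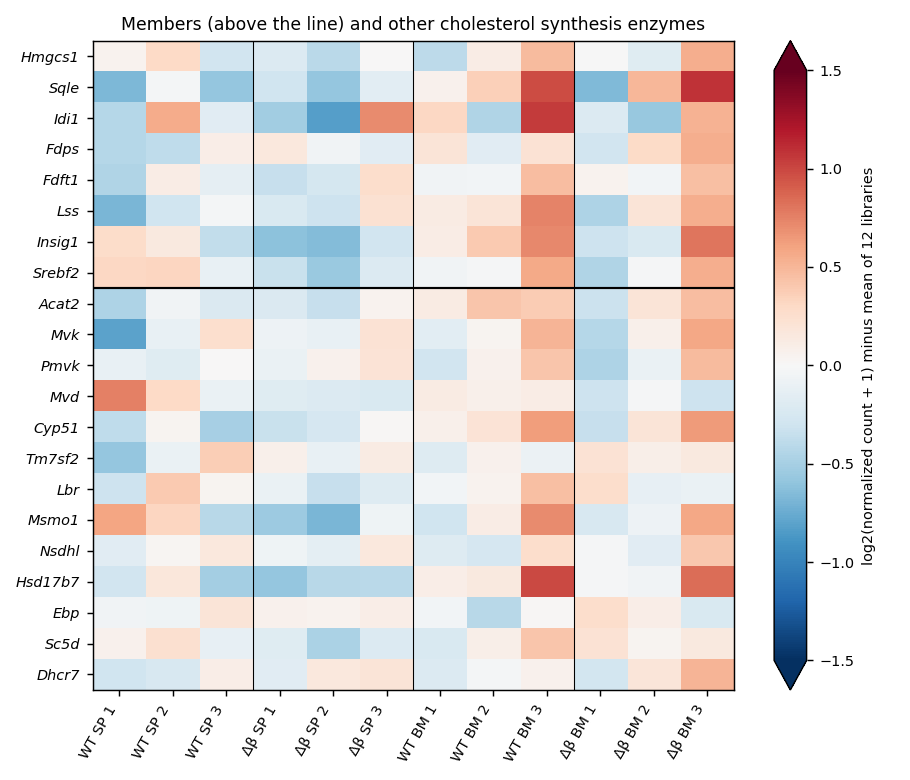
Log2(normalized count + 1) minus the mean of the 12 libraries (colour, cut at ±1.5) for the 8 members above the line and 13 other cholesterol synthesis enzymes below it, with libraries in columns by group. The columns of WT BM 3 and Δβ BM 3 are above the mean for 8 of 8 members.

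The rest of the pathway was described with 55 further genes in 6 lists, of which 51 were tested and the others, Abca1, Scd1 and Me1 among them, were below the minimum level. limma called 0 of the 51 in any comparison. In SP, 2 of the 51 had an unadjusted p under 0.05 between genotypes with limma, both lower in Δβ, and in BM 1 did, beside 14.9% and 2.59% of all genes. These were Acaca in both organs and, in SP, Mvd, which makes isopentenyl diphosphate, at −0.52. Acaca, acetyl-CoA carboxylase, opens fatty acid synthesis and is a target of the related factor SREBP1. Its normalized counts were 302, 284 and 335 in WT SP and 193, 215 and 188 in Δβ SP. Its log2 fold change there was −0.62 (−0.93 to −0.32) with adjusted p = 0.162 from limma. In BM it had 342, 259 and 289 in WT and 188, 199.7 and 194 in Δβ, and the log2 fold change was −0.60 (−0.91 to −0.30) with adjusted p = 0.511 from limma. The genotypes did not overlap in either organ, beside 17.3% of all genes in SP and 7.63% in BM in either direction. DESeq2 on recovered reads called Acaca in both organs, beside 3.98% of all genes in SP and 0.322% in BM. Its r with the members' mean was 0.0765.

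Among the 15 other cholesterol synthesis enzymes, 7 were below 0 between genotypes in SP and 10 in BM, with medians of 0.05 and −0.10. In SP the lowest was Msmo1 at −0.59 (−1.32 to 0.13), and in BM the highest was Tm7sf2 at 0.22 (−0.27 to 0.71).

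In the organ comparison averaged over genotypes, 13 of these 15 enzymes were below 0, with a median of −0.21, beside 49% and 0.00 for all genes. limma gave 4 of the 15 an unadjusted p under 0.05, all lower in SP, as it did for 2.78% of all genes. Among them were Hsd17b7 at −0.67 (−1.14 to −0.20), Cyp51 at −0.47 (−0.85 to −0.08) and Acat2 at −0.42 (−0.75 to −0.08), and the adjusted p of each was 0.845. The highest value of the list was that of Mvd, 0.11 (−0.19 to 0.41). Of the 15 enzymes 8 had both BM libraries numbered 3 on top of the 6 BM libraries, beside 6.48% of all genes.

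The next list holds SREBP processing, the step that Insig1 holds back. Between genotypes its 5 genes ran from −0.36 (Insig2) to −0.07 (the site-1 protease gene Mbtps1) in SP and from −0.15 (Scap) to 0.15 (the site-2 protease gene Mbtps2) in BM. Between organs they ran from −0.02 (Srebf1) to 0.12 (Insig2), and 0 of the 5 had an unadjusted p under 0.05 with limma in any comparison.

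Genes of LDL uptake and sterol transport had a median of −0.37 on the log2 scale between genotypes in SP, with Lrp1, a receptor of the LDL receptor family, the lowest at −0.84 (−2.30 to 0.61) and Tmem97 the highest at 0.47 (−0.07 to 0.9997). Lrp1 reached 16598, 6680 and 1622 normalized counts in replicates 1, 2 and 3 of WT SP, against 4332, 1978 and 3635 in Δβ SP, so that its WT replicates spanned more than the genotypes. In BM the extremes were Lrp1 at −0.43 and Scarb1 at 0.13, and between organs Stard4 at −0.47 and Lrp1 at 0.57.

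Genes of esterification, efflux and the oxysterol receptor LXR were below 0 between genotypes in SP for 7 of 7 tested, beside 51.9% of all genes, with a median of −0.25. The mean of their centred log2 values was 0.76 and 0.53 in WT SP replicates 1 and 2 but −0.24 in replicate 3, below the 3 Δβ SP libraries, −0.12 to −0.0043. The extremes were the LXR gene Nr1h3 at −0.95 (−2.27 to 0.38) and Mylip, which degrades the LDL receptor, at −0.07. Nr1h3 had 70.7, 28.6 and 25.4 normalized counts in WT SP, 20.1, 13.4 and 24.5 in Δβ SP, 22.8, 5.63 and 5.03 in WT BM and 8.70, 14.0 and 6.22 in Δβ BM. It had the highest organ difference of all pathway genes, 1.46 higher in SP on the log2 scale (0.53 to 2.40, adjusted p = 0.845 from limma), opposite in sign to the members. In BM the extremes between genotypes were the exporter gene Abcg1 at −0.38 and Lpcat3 at 0.08, and the lowest between organs was Apoe at −0.29.

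The WT SP replicate 3 library changed how many pathway genes were called in SP. Without it, 7 of the 51 were lower in Δβ SP at an adjusted p under 0.05 from limma, among them Abcg1, Acaca, Lrp1, Mvd, Npc1 and Scarb1, when 16.4% of all genes were called in that fit, and 0 members were. This library was one of the pair with the high share of Rn45s, 2.41% against 2.48% in WT SP replicate 2. It also differed from replicates 1 and 2 in several blast markers. Mpo had 40587 normalized counts against 5947 and 5256, Myb 11400 against 2842 and 5439, and Itgam 10941 against 26293 and 21981. Cebpa, at 1579, lay between the 1639 and 1487 of replicates 1 and 2. The part of Rn45s or of these markers in the counts of called genes was not tested.

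The last lists hold branches away from sterols. Of the genes for other mevalonate products, Fntb, of protein farnesylation, was the highest between genotypes, at 0.25 in SP and 0.26 in BM, and the lowest between organs, at −0.19. The lowest between genotypes in BM was Pdss2, of ubiquinone synthesis, at −0.22. Fatty acid genes ran from Acaca at −0.62 to Fads2 at 0.37 in SP, from Fads2 at −0.71 to Elovl6 at 0.50 in BM, and from Fads2 at −0.79 to Acss2 at 0.13 between organs.

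**Figure D4:**
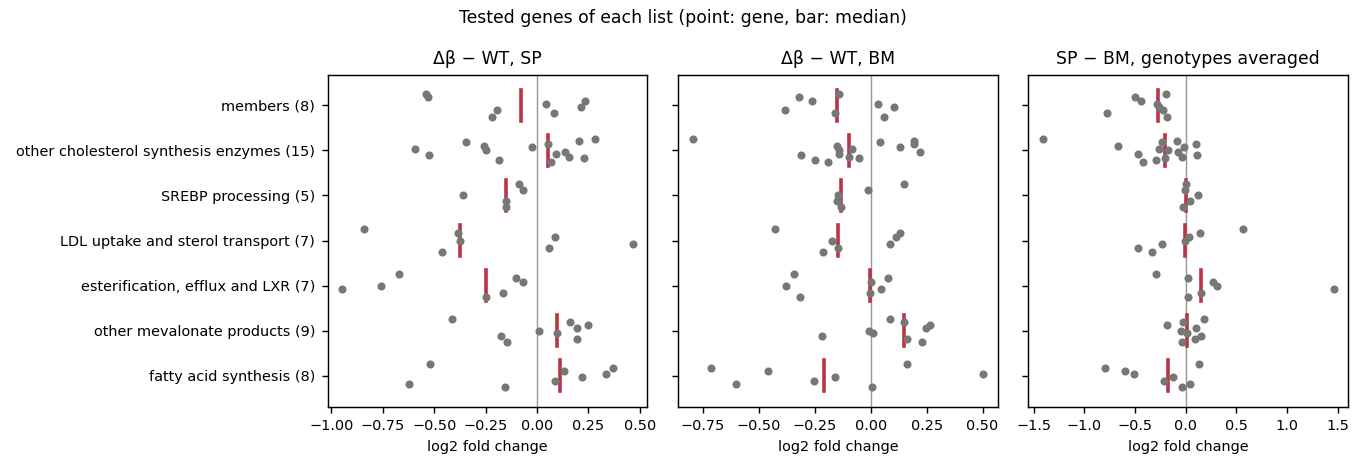
Log2 fold changes from limma (x axis) of the tested genes of each list (1 point per gene, bar at the median, number tested in brackets) for Δβ minus WT in SP, Δβ minus WT in BM and SP minus BM averaged over genotypes. In the organ panel the members and the other cholesterol enzymes have medians of −0.27 and −0.21.

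Ordered by group mean, Δβ SP was lowest for Hmgcs1, Idi1, Insig1 and Srebf2 and WT SP was lowest for Sqle, Fdps, Fdft1 and Lss, and the highest group was a BM group for all 8. Neighbours in these orders overlapped for every member. The Δβ minus WT comparison in SP and the SP minus BM comparison in WT blasts share the WT SP libraries, so their values are not separate evidence.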

How the data were processed

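RNA of Venus-sorted blasts was sequenced in 12 libraries, grouped by genotype and organ in their labels, 3 per group. Values deposited by the authors are signal values, 1 for each gene in each library, that is, the gene read count divided by 1 size factor per library, called normalized count here. The submitters' processing notes name FastQC, STAR, featureCounts, DESeq2 and GRCm38/mm10; versions, counting options and strand use are not given in the sources used here. Of the nonzero values, 100% were within 0.001 read of a whole multiple of 1 read in each library, and at most 0.332% were whole before division, so reads were recovered by division. The same table held 6 columns without a matching sample label, which were not used.

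Genes with a mean of at least 10 (11476) were tested with the trended empirical Bayes fit of limma 3.58.1 in R 4.3.3 on log2(normalized count + 1), with 1 mean per group over the 12 libraries and Benjamini-Hochberg adjustment over all genes tested, called at an adjusted p under 0.05. Fold changes are on that scale, which understates changes of low genes. Intervals are 95%. The procedure was tested on simulated data with 200 genes changed by known folds larger than any seen for the members. The simulated libraries were drawn independently, so this cannot tell whether differences of the members' size would be found here. Alternatives were pseudocounts of 0.25 and 4, no filter, a minimum mean of 50, TMM rescaling, edgeR 4.0.16 (quasi-likelihood) and DESeq2 1.42.0 on recovered reads, the compared groups alone, a replicate block, each library left out, and 2 sets of libraries left out after seeing the data. Depth was 9001051 to 13859727 reads on genes per library; a floor of 3 reads is 2.33 to 3.50 normalized counts, which covers counting error only.

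Same-numbered Δβ SP and BM libraries deviated together from their group means (r 0.608 to 0.664), whereas WT SP and BM (−0.237 to −0.00936) and the genotypes within SP (−0.166 to 0.202) or BM (−0.0893 to 0.128) did not, so same-numbered pairs were counted for Δβ organs only. The main fit used no pairing in any comparison. The replicate block was an alternative only, by number in the genotype comparisons and by number within each genotype, WT included, in the others.

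The 8 members and the 6 lists were chosen with earlier results of these data known. Named were the members, any list gene called, the highest and lowest gene of each list in the genotype and averaged organ comparisons, the 5 genes outside the lists most like the members, and Stat3. The list genes at an unadjusted p under 0.05 and the genes called in single alternatives were named after their values were seen. Some list genes enter the counts and medians but are not reported by name here. Positions are from GENCODE M21 on GRCm38, sequence matches from blastn 2.17.0 at 95% identity.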

Additional observations from a re-analysis of the deposited data

How the results depend on the processing

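No member was called under any alternative, and the 48 member values, fold changes and differences between organs, gave 850 alternative values, of which 795 kept their direction and side of the threshold, 42 changed sign when 1 library was left out and 13 under other settings. With the replicate block 0 members were called in each comparison, as without it, and the block changed no other call. Without both WT SP libraries of over 2% Rn45s, the lone WT SP library being assumed to vary like the other groups, Idi1 was 0.22 between genotypes in SP. In the WT organ comparison Srebf2 was −0.0079 with TMM, −0.026 with edgeR and −0.017 with DESeq2. Without both BM libraries numbered 3, Fdps was −0.012 between genotypes in BM, Hmgcs1 0.16 and Idi1 0.057 between WT organs, Idi1 0.18 and Lss 0.027 between Δβ organs, and Hmgcs1 0.027, Idi1 0.12 and Srebf2 0.037 between organs averaged, and the genotype effect of Fdft1 differed between organs by −0.0089. Leaving out 1 library, sign changes were seen between genotypes in SP for Sqle (−0.042 to 0.28), Fdft1 (−0.15 to 0.18) and Idi1 (−0.66 to 0.11), in BM for Hmgcs1 (−0.17 to 0.26), Fdft1 (−0.12 to 0.20), Fdps (−0.080 to 0.34), Sqle (−0.55 to 0.32), Srebf2 (−0.40 to 0.10) and Lss (−0.49 to 0.016), between WT organs for Srebf2 (−0.10 to 0.21), Hmgcs1 (−0.27 to 0.16) and Idi1 (−0.69 to 0.057), and between Δβ organs for Idi1 (−0.59 to 0.18) and Lss (−0.47 to 0.027). For the difference of the genotype effect between organs they were seen for Sqle (−0.24 to 0.63), Idi1 (−0.27 to 0.56), Fdps (−0.12 to 0.30), Fdft1 (−0.18 to 0.16) and Insig1 (−0.41 to 0.15). Of the 51 pathway genes, DESeq2 called 1 (Acaca) between genotypes in SP and 1 (Acaca) in BM. Leaving out 1 library, 0 to 7 were called in SP and 0 to 1 between WT organs (without WT SP replicate 3), and without both WT SP libraries of over 2% Rn45s 7 and 5, when 13% and 9.96% of all genes were called. The causes were not tested. DESeq2 called 457 of all genes between genotypes in SP and edgeR 4, against 12 with limma. In BM these counts were 37, 8 and 8, between WT organs 111, 0 and 0, between Δβ organs 2, 0 and 0, averaged 37, 0 and 0, and for the difference between organs 3, 0 and 0. Idi1 has no value at a minimum mean of 50.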
